A study of Mus musculus with 12 samples.

Results

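The 8 genes of saliva and other gland secretions described here in mouse mammary tumors are Bpifa2, Smr3a, Amy1, Fxyd2, Aqp5, Dmbt1, Pip and Lpo. They are 8 of the 21960 genes listed for each tumor, and all 8 were found by symbol. They were chosen by name after results of these tumors were known, because Bpifa2 and Smr3a differed between DOX/IgG1 and IgG1 tumors, so their values in that comparison are a description and carry no test. RNA from whole tumors of 12 mice was sequenced, 1 library per tumor and 3 tumors in each of 4 treatment groups.

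The mice of all groups were females on a C57BL/6 background whose polyoma virus middle T oncogene (PyMT) is driven by the promoter of mouse mammary tumor virus (MMTV), and their tumors arose spontaneously. IgG1 mice received an isotype control antibody and anti-PD-1 mice a PD-1-blocking antibody, first at 20 mg/kg and later at 10 mg/kg, from a tumor diameter of 0.6 cm. Mice of the DOX/IgG1 group, and likewise those of the DOX/anti-PD-1 group, received doxorubicin (DOX) at 5 mg/kg followed by the same antibodies at 10 mg/kg, from a diameter of 1 cm. The labels give 5 weeks for all groups, whereas the methods give a shorter interval and course of antibody without doxorubicin than with it. Doxorubicin thus cannot be told apart from the size at start, the first antibody dose and the antibody schedule when a doxorubicin group is set beside a group without it. The age of each mouse, and which mammary gland each tumor came from, are not given in the sources used here.

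Saliva is made by acinar cells, which secrete water, salt and proteins such as amylase, and is altered by duct cells, which exchange ions. Many of the same proteins are made by lacrimal, mammary, airway and gut epithelia, so few of them mark a salivary gland alone. The MMTV promoter is active in mammary epithelium and also in salivary epithelium, and the mammary glands of the neck lie close to the salivary glands in mice.

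Values are TPM, a transcript level that accounts for transcript length and is scaled to a fixed total per library, obtained by reversing the deposited log2(TPM + 1). The sum of these values over all genes was 609418 to 725506 per tumor, and since no counts are given, the depth behind each value is unknown. Some genes that every cell uses were listed at 0, Rps12 in 4 tumors and Rpl24 in 1 tumor, both ribosomal protein genes picked after their values were seen, so a 0 can be an estimate that failed and is written as listed at 0. In bulk tumors, fewer cells of a type and less RNA per cell cannot be told apart. DOX/IgG1 replicate 1 stood apart from the other libraries. Its correlations with the other 11 tumors across all genes ran from 0.927 to 0.944, it had 8104 genes at 0 against 6534 to 7730 in the others, and its file header alone carries the word test. DOX/anti-PD-1 replicate 3 came next, with a median correlation of 0.944 with the other tumors. The headers of the 3 DOX/anti-PD-1 libraries also end in another number than those of the remaining libraries, and what this marks is not given in the sources used here, so it cannot be told apart from the treatment.

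The tumors were mammary by their markers. All 12 luminal mammary genes reached 1 TPM in at least 1 tumor, led by Epcam at 418 to 954 TPM, and so did all 12 milk protein genes, led by Csn3 at 812 to 9221 TPM. Aqp5 was abundant in every tumor, whereas Bpifa2 was listed at 0 in 9 of 12 tumors and Smr3a in 8.

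Bpifa2 encodes parotid secretory protein, an abundant protein of mouse parotid saliva. The gene lies at chr2:154008265-154016079 on the forward strand (ENSMUSG00000042459, GRCm38, the assembly also called mm10), and no other annotated gene overlaps it. Smr3a encodes a small protein of the submandibular gland, at chr5:88002549-88008534 on the forward strand (ENSMUSG00000029280). Its exons overlap those of Gm28434 on the same strand, which was listed at 0 in all 12 tumors, so reads of the pair could have been assigned to Smr3a. The windows of 250 bases before to 50 bases after the start of Bpifa2 (chr2:154008026-154008325) and Smr3a (chr5:88002275-88002574) are shown because these genes were high in the same 3 tumors, together with those of Pip (chr6:41847299-41847598) and of the second annotated start of Amy1 (chr3:113574713-113575012, reverse strand). They are from RefSeq on GRCm38.p6, 5′ to 3′ on the strand of the gene, and capitals mark TATAA, the core of the TATA box, or its reverse complement TTATA, which join to TTATAA where they overlap.
Bpifa2: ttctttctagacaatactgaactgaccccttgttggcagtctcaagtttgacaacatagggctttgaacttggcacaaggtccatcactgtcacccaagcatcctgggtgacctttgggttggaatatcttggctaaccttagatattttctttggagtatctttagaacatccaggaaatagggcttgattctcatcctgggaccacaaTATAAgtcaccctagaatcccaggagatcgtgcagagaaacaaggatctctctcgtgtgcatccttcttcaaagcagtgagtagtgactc
Smr3a: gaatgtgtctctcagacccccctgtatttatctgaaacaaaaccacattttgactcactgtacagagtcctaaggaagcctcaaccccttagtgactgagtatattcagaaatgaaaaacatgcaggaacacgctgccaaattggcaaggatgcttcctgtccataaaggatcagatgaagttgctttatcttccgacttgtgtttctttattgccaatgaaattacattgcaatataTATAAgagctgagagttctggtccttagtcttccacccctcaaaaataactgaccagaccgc
Pip: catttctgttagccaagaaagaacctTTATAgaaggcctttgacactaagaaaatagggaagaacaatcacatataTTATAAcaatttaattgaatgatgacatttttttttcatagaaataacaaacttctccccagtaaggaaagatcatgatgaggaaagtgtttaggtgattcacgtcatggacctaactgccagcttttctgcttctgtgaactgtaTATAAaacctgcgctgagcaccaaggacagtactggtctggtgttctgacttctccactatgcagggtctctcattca
Amy1 start 2: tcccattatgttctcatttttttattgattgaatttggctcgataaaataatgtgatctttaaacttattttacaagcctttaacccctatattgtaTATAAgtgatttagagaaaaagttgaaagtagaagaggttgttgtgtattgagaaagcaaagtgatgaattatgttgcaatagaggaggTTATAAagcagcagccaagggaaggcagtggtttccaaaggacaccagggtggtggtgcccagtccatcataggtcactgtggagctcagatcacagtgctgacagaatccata

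The table of promoters held 7 windows for 6 of the 8 genes, with 2 starts 2988 bases apart for Amy1, and Fxyd2 and Dmbt1 were not among them. TATAA was found on either strand in 4 of the 7 windows, and in 24.9% of all 32851 windows. On the strand of the gene it began 40 bases before the start of Bpifa2, 12 bases before that of Smr3a and 28 and 173 bases before that of Pip, counted from the RefSeq start. On the other strand of Pip it was found at 224 and 174 bases. In the Amy1 window it began 153 and 63 bases before the start, the latter overlapping a match on the other strand at 64 bases. The windows of Aqp5, Lpo and the first start of Amy1 held no TATAA, and the Aqp5 window (chr15:99590778-99591077) had 79.7% G and C. Pip, named for its induction by prolactin, held TTCNNNGAA, the letters that STAT5 binds, 140 and 42 bases before its start. This motif reads the same on both strands and occurs in 8.30% of all windows. The E-box forms CAGCTG and CATATG, which read the same on both strands and occur in 16.3% and 3.91% of all windows, were in 0 of the 7. These matches are descriptions of letters in a window and not sites in use.

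Bpifa2 was listed at 14.4, 21.3 and 53.7 TPM in DOX/IgG1 replicates 1, 2 and 3 and at 0 in the other 9 tumors. Smr3a was listed at 16.6, 10.2 and 14.8 TPM in the DOX/IgG1 tumors, at 2.76 TPM in anti-PD-1 replicate 3 and at 0 in the other 8 tumors. The DOX/IgG1 tumors were thus above all others for both genes, with or without replicate 1, and the DOX/anti-PD-1 tumors, which received the same doxorubicin dose, were all listed at 0. The order within DOX/IgG1 differed, since Bpifa2 was highest in replicate 3 and Smr3a in replicate 1. Bpifa2 was 0.870, 2.09 and 3.63 times Smr3a in replicates 1, 2 and 3, a ratio that varied 4.17-fold among these tumors.

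**Figure D1:**
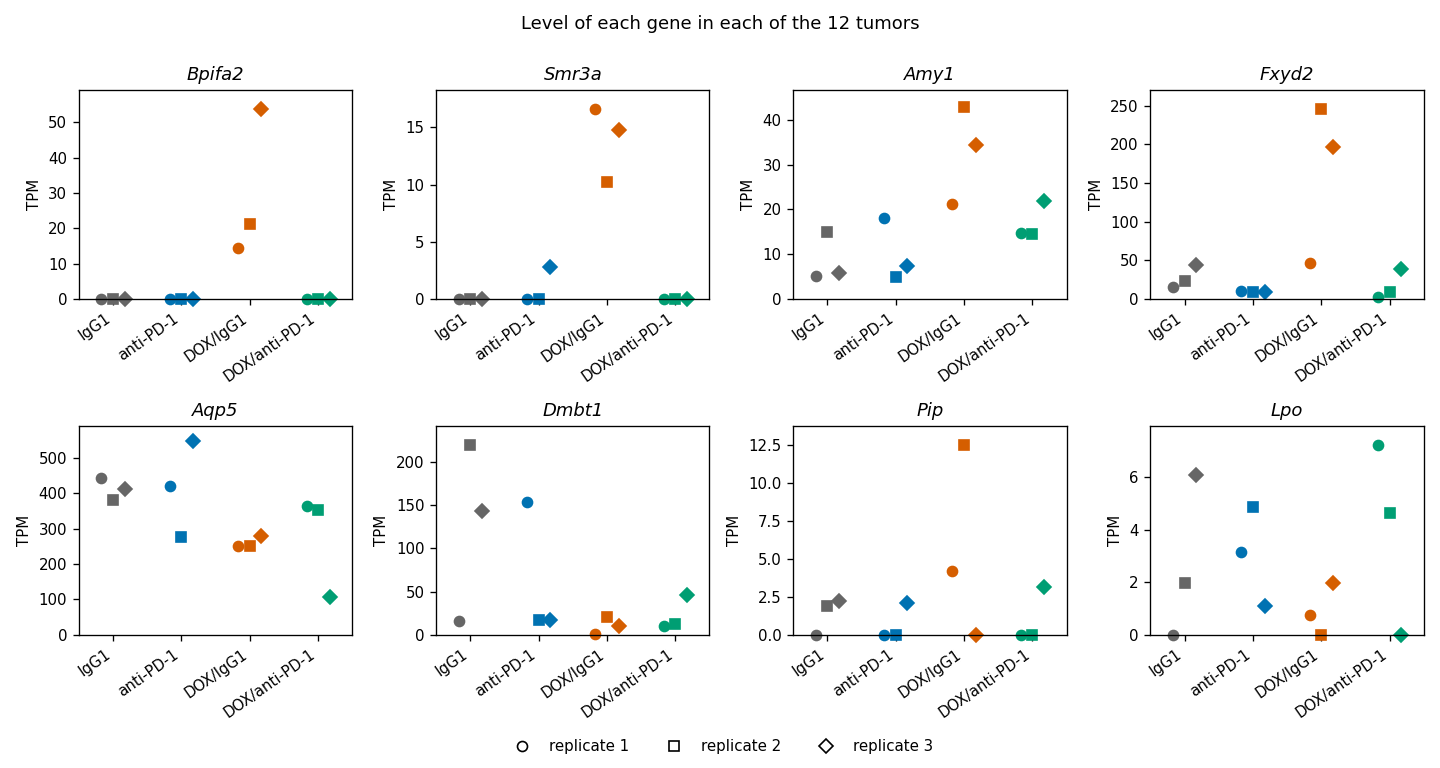
Level in TPM (y axis, linear, from 0) of the 8 genes in each of the 12 tumors, by treatment group (x axis); each point is 1 tumor and its shape the replicate number. Bpifa2 and Smr3a are above 10 TPM only in the 3 DOX/IgG1 tumors, Fxyd2 reaches 246 TPM there, and Aqp5 lies between 107 and 546 TPM in all groups.

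Amy1 encodes salivary amylase, which cleaves starch, and is also transcribed in liver. It spans chr3:113555710-113606699 on the reverse strand (ENSMUSG00000074264), with exons that overlap those of Rnpc3 on the same strand, so reads could have been split between them. Amy1 was at 5.24, 15.0 and 5.93 TPM in IgG1, 18.1, 4.85 and 7.32 TPM in anti-PD-1, 21.1, 42.8 and 34.3 TPM in DOX/IgG1, and 14.8, 14.6 and 21.8 TPM in the DOX/anti-PD-1 group. All 12 tumors had a level, and the DOX/IgG1 tumors lay above all IgG1 and anti-PD-1 tumors but overlapped DOX/anti-PD-1, whose replicate 3 was above DOX/IgG1 replicate 1. The group means were 32.7 ± 10.9 TPM in DOX/IgG1 and 8.72 ± 5.45 TPM in the IgG1 group (SD, n = 3), a log2 fold change of 1.88 on the scale of log2(TPM + 1), which understates changes of low genes. Rnpc3, a splicing factor gene, was at 36.4 to 126 TPM and correlated with Amy1 with r = 0.53 and rho = 0.60 over the 12 tumors; its part in the Amy1 values was not tested. The pancreatic amylase genes Amy2a1, Amy2a2 and Amy2a5, closely similar neighbors, were listed at 0 in all 12 tumors.

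Fxyd2 encodes the gamma subunit of the Na,K-ATPase, best known in kidney tubules and also found in ducts that move ions. It lies at chr9:45399669-45410278 on the forward strand (ENSMUSG00000059412), overlapped by no other annotated gene. Fxyd2 was at 15.5, 23.2 and 43.7 TPM in IgG1, 10.8, 9.57 and 9.36 TPM in anti-PD-1, 47.1, 246 and 197 TPM in DOX/IgG1, and 3.21, 8.75 and 39.0 TPM in the DOX/anti-PD-1 group. DOX/IgG1 replicates 2 and 3 stood far above the rest, and replicate 1 was only just above the highest IgG1 tumor. The log2 fold change of DOX/IgG1 against IgG1 was 2.35, and 1.90 to 3.08 without 1 tumor, highest without DOX/IgG1 replicate 1. Of the other FXYD genes, Fxyd3 was the most abundant at 40.0 to 138 TPM, with 40.0, 65.2 and 40.2 TPM in DOX/IgG1 tumors, and Fxyd5 was at 6.41 to 25.2 TPM. Fxyd6, the nearest coding neighbor of Fxyd2, was at 7.62, 30.3 and 43.9 TPM in DOX/IgG1 tumors and at most 28.5 TPM elsewhere. Like Fxyd2, it was thus higher in DOX/IgG1 replicates 2 and 3 than in all other tumors, but replicate 1 was its lowest tumor. Fxyd1 reached at most 9.98 and Fxyd4 13.3 TPM, and Fxyd7 reached 1.47 TPM in DOX/IgG1 replicate 2 and was listed at 0 elsewhere.

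Aqp5 encodes the water channel of the apical membrane of acinar cells, which carries fluid into saliva and tears. It lies at chr15:99590782-99594829 on the forward strand (ENSMUSG00000044217). Aqp5 was at 444, 381 and 411 TPM in IgG1, 422, 277 and 546 TPM in anti-PD-1, 252, 251 and 280 TPM in DOX/IgG1, and 362, 353 and 107 TPM in the DOX/anti-PD-1 group. It thus ran the other way from Bpifa2, with all DOX/IgG1 tumors below all IgG1 tumors and a lowest value in DOX/anti-PD-1 replicate 3, while DOX/IgG1 overlapped the other 2 groups. Means were 261 ± 16.3 TPM in DOX/IgG1 and 412 ± 31.2 TPM in the IgG1 group (SD, n = 3), a log2 fold change of -0.66. Aqp1, the water channel of vessels and red cells, was at 29.8 to 110 TPM and highest in DOX/IgG1 replicate 2. Aqp11 was at 2.5 to 33.1 TPM, Aqp7 reached at most 13.0, Aqp3 7.7, Aqp9 6.13, Aqp2 2.43 and Aqp4 1.57 TPM, Aqp6 never reached 1 TPM, and Aqp8 and Aqp12 were listed at 0 in every tumor.

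Dmbt1 encodes a large scavenger receptor glycoprotein of saliva and mucosal surfaces that binds bacteria. It lies at chr7:131032053-131121630 on the forward strand (ENSMUSG00000047517), where Fgfr2 overlaps it on the reverse strand, so reads could have been split between them if strand was not used. Dmbt1 was at 16.2, 220 and 143 TPM in IgG1, 154, 17.8 and 16.9 TPM in anti-PD-1, 1.06, 20.7 and 10.1 TPM in DOX/IgG1, and 10.2, 12.8 and 46.1 TPM in the DOX/anti-PD-1 group. Its 3 levels above 100 TPM were in 2 IgG1 tumors and 1 anti-PD-1 tumor, and IgG1 replicate 1 lay within the DOX/IgG1 range, so the groups overlapped. The log2 fold change of DOX/IgG1 against IgG1 was -3.37, -2.40 without DOX/IgG1 replicate 1 and -4.49 without IgG1 replicate 1, the range over leaving out each tumor.

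Pip encodes prolactin-induced protein, which is secreted by salivary, lacrimal and apocrine glands, and lies at chr6:41847535-41852065 on the forward strand (ENSMUSG00000058499). Pip was listed at 0, 1.89 and 2.26 TPM in IgG1, 0, 0 and 2.11 TPM in anti-PD-1, 4.23, 12.5 and 0 TPM in DOX/IgG1, and 0, 0 and 3.16 TPM in the DOX/anti-PD-1 group. The highest level was in DOX/IgG1 replicate 2, but replicate 3, where Bpifa2 was highest, was listed at 0. Lpo encodes lactoperoxidase, an antibacterial enzyme of milk, saliva and tears, and lies at chr11:87806428-87828289 on the reverse strand (ENSMUSG00000009356). It was listed at 0, 1.96 and 6.07 TPM in IgG1, 3.16, 4.86 and 1.09 TPM in anti-PD-1, 0.76, 0 and 1.96 TPM in DOX/IgG1, and 7.23, 4.65 and 0 TPM in the DOX/anti-PD-1 group. All groups overlapped for both genes, and DOX/IgG1 tumors were low for Lpo. Among the other heme peroxidase genes, Duox1 was at 1.25 to 6.53 TPM, and Mpo was at 1.75 TPM in IgG1 replicate 3 and Epx at 1.38 TPM in DOX/IgG1 replicate 2 only.

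Against IgG1, the values of DOX/IgG1 tumors did not overlap for 5 of the 8 genes, 4 higher and 1 lower. Among 13874 genes at 1 TPM or more in at least 3 of these 6 tumors, 9.31% were higher and 4.64% lower without overlap. With limma, 5 genes (0.0360%) were called, that is, had an adjusted p under 0.1 and differed by more than 1 on the log2 scale. Bpifa2 and Smr3a were 2 of them, and since these values chose the genes, nothing is read from the counts. Without DOX/IgG1 replicate 1, which stood apart, 122 genes were called, and 0 to 2 without any other of the 6 tumors. All 8 reached the minimum here, but Bpifa2 and Smr3a did so only through the DOX/IgG1 tumors. DOX/IgG1 replicate 2 was the highest of the 12 tumors for 3 of the 8 genes, replicates 1 and 3 for 1 each, and the other 3 genes peaked in IgG1 replicate 2, anti-PD-1 replicate 3 and DOX/anti-PD-1 replicate 1. The 8 genes were thus not high together in any 1 tumor, and the most that any tumor held among its 3 highest was 5 of 8, in DOX/IgG1 replicate 2.

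Pearson r and Spearman rho of log2(TPM + 1) were computed for the 28 pairs of the 8 genes over the 12 tumors, as a description with no p-value, because the genes were chosen on these tumors and all pairs share their libraries. There were 7 pairs with r above 0.5 and 15 below 0, and the median was -0.03. Bpifa2 and Smr3a had r = 0.93 (rho = 0.87), Bpifa2 and Fxyd2 r = 0.82 (rho = 0.75), Bpifa2 and Amy1 r = 0.71 (rho = 0.71) and Smr3a and Fxyd2 r = 0.71 (rho = 0.58). Amy1 joined this group less closely, with r = 0.62 (rho = 0.62) to Fxyd2 and r = 0.60 (rho = 0.56) to Smr3a, and Pip correlated with Fxyd2 with r = 0.59 (rho = 0.62). Aqp5, Dmbt1 and Lpo stood outside it. Aqp5 had r = -0.49 (rho = -0.57) with Amy1 and -0.41 (rho = -0.46) with Fxyd2, and the lowest r of all pairs was that of Smr3a and Dmbt1, at -0.59 (rho = -0.54).

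The correlations among Bpifa2, Smr3a, Amy1 and Fxyd2 were lower once the step between DOX/IgG1 and the other groups was taken out. When each value was taken as its deviation from the mean of its group, Bpifa2 and Smr3a had r = 0.0017 and only 2 of the 28 pairs were above 0.5, Amy1 and Dmbt1 at 0.86 and Fxyd2 and Dmbt1 at 0.69. Over the 9 tumors outside DOX/IgG1, where Bpifa2 was listed at 0 throughout and gives no r, 2 of the 21 remaining pairs were above 0.5, Fxyd2 and Pip at 0.72 and Fxyd2 and Dmbt1 at 0.65, and Amy1 and Fxyd2 had r = -0.03. Some other pairs did not follow the step. Aqp5 and Fxyd2 had r = -0.62 for the deviations and -0.39 over the 9 tumors, while Amy1 and Aqp5 had -0.13 and -0.45, and Fxyd2 and Pip 0.39 for the deviations. Without the 2 tumors farthest from the median of the first gene, Bpifa2 is above 0 in 1 tumor and Smr3a in 2, so that r of their pairs then rests on those tumors and is not read here. For the pairs of other genes it was 0.79 for Fxyd2 and Pip and 0.42 for Amy1 and Fxyd2, the latter resting in part on the tumors left out. Bpifa2, Smr3a, Amy1 and Fxyd2 were therefore high in the same group, but for deviations within the groups, where Bpifa2 varied in 3 tumors only, r among their pairs was between -0.25 and 0.41.

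**Figure D2:**
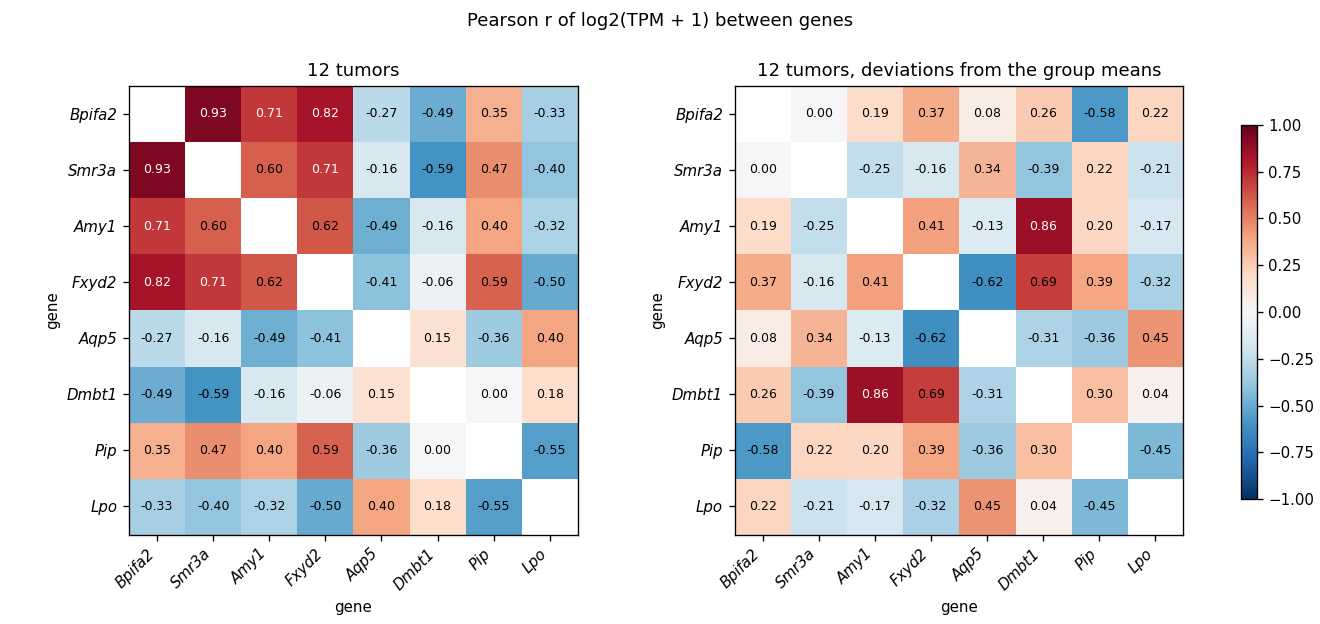
Pearson r of log2(TPM + 1) between each pair of the 8 genes (both axes), over the 12 tumors on the left and over deviations of the 12 tumors from their group means on the right; color and number give r. Bpifa2 and Smr3a go from 0.93 on the left to 0.00 on the right.

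The 3 genes most like each of the 8, by Pearson r over the 12 tumors among 14734 other genes that reached 1 TPM in at least 3 tumors, included another of the 8 only for Bpifa2. Most like Bpifa2 were D730001G18Rik (r = 0.96), Celf5 (0.95), an RNA-binding protein gene, and Smr3a (0.93). Celf5 was at 4.36 to 5.73 TPM in DOX/IgG1 tumors and at most 1.14 TPM elsewhere. Smr3a was most like Gm3194 (0.96), Chia1 (0.95), which encodes an acidic chitinase, and D730001G18Rik (0.95), while Bpifa2 was in place 4. Such low genes, listed at 0 in up to 8 tumors, reach a high r by being listed at all in the same few tumors. Amy1 was most like Mgrn1 (0.98), Shpk (0.95) and Adcy5 (0.93), the genes of a ubiquitin ligase, a sugar kinase and an adenylyl cyclase, and Fxyd2 was most like Tgoln1 (0.91), Hgf (0.91) and Nbeal1 (0.90). Aqp5 was most like Nedd8 (0.96), Cnih4 (0.92) and Psenen (0.91), whose lowest levels of the 12 tumors, at 3.69, 20.8 and 12.2 TPM, were in the DOX/anti-PD-1 group as that of Aqp5 was. For Dmbt1 the genes were Ccpg1 (0.91), Spata13 (0.90) and Bcl11b (0.89), for Pip the early response genes Egr1 (0.90) and Btg2 (0.88) and Mrgpre (0.85), and for Lpo Shcbp1 (0.90), Rcc1 (0.89) and Tshb (0.89). Spearman rho of the closest gene was 0.90 for Bpifa2, 0.99 for Smr3a, 0.96 for Amy1, 0.84 for Fxyd2, 0.86 for Aqp5, 0.81 for Dmbt1, 0.86 for Pip and 0.93 for Lpo. Of these 24 choices, 9 were also among the 3 highest by Spearman rho.

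Of 22 genes listed as salivary acinar secretory genes, 7 of them among the 8, 21 were in the files and 17 reached 1 TPM in at least 1 tumor. Its most abundant gene was Aqp5. Muc5b, Bpifb9b, Prb1 and Prh1, the last 2 proline-rich proteins of saliva, never reached 1 TPM, though Prb1 was listed above 0 only in DOX/IgG1 replicate 3, and Prh1 was listed at 0 in every tumor. Of the 14 genes that are not among the 8, the number listed at 0 was 11, 7 and 8 in IgG1, 8, 8 and 6 in anti-PD-1, 10, 7 and 2 in DOX/IgG1, and 8, 9 and 8 in DOX/anti-PD-1 tumors. DOX/IgG1 replicate 3 was thus lowest in this number, whereas replicates 1 and 2 were within the range of the other groups. Summed without the 8 genes, the list reached 94.6, 397 and 473 TPM in IgG1, 532, 99.4 and 482 TPM in anti-PD-1, 42.0, 320 and 73.1 TPM in DOX/IgG1, and 328, 112 and 63.1 TPM in the DOX/anti-PD-1 group, and was lowest in DOX/IgG1 replicate 1. Most of it was Car6 in all tumors but DOX/IgG1 replicates 1 and 3. Car6, a carbonic anhydrase secreted in saliva, was at 13.3 to 515 TPM with 13.3, 278 and 18.7 TPM in DOX/IgG1 tumors. Also without Car6, a choice made after the values were seen, the remaining 13 genes summed to 28.7, 41.8 and 54.4 TPM in DOX/IgG1, 2.59, 16.3 and 16.8 TPM in IgG1, 16.8, 10.5 and 35.2 TPM in anti-PD-1, and 24.5, 17.0 and 11.01 TPM in the DOX/anti-PD-1 group. By this sum the DOX/IgG1 tumors lay above all IgG1 and DOX/anti-PD-1 tumors and overlapped anti-PD-1, whose replicate 3 was above DOX/IgG1 replicate 1, so that the order of the groups depends on Car6. Of the 28.7 TPM in DOX/IgG1 replicate 1, 18.9 TPM were Dnase1, which was at most 9.7 TPM outside DOX/IgG1. The place of this tumor thus rests largely on 1 gene. In DOX/IgG1 against IgG1, 14 acinar genes were tested, 9 with a higher and 5 with a lower value. Their median log2 fold change was 0.74 against 0.12 over all genes. Of these genes, 2, Bpifa2 and Smr3a, reached the minimum through DOX/IgG1 tumors only, which fixed their direction. The other 12 had 7 higher and 5 lower values, with a median of 0.40. Of the 7 that are not among the 8, 5 had a higher and 2 a lower value, with a median of 0.66, as a description. Car6 correlated with Dmbt1 (r = 0.69, rho = 0.64) and Aqp5 (r = 0.55, rho = 0.68) over the 12 tumors, and without the 2 tumors farthest from the median of Dmbt1 or Aqp5 the r was 0.49 and 0.59.

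Smr2 and Prol1, which encode further secreted proteins of the submandibular and lacrimal glands, lie with Smr3a within 326 kb on chromosome 5. Smr2 was at 0, 3.20 and 3.32 TPM in IgG1, 2.59, 0 and 10.8 TPM in anti-PD-1, 0, 3.98 and 19.3 TPM in DOX/IgG1, and 2.96, 0 and 0 TPM in the DOX/anti-PD-1 group. Prol1 was at 1.17, 1.78 and 0 TPM in IgG1, 4.32, 0.55 and 12.5 TPM in anti-PD-1, 0, 23.6 and 9.81 TPM in DOX/IgG1, and 4.94, 1.41 and 1.49 TPM in the DOX/anti-PD-1 group. Anti-PD-1 replicate 3, the only tumor outside DOX/IgG1 with Smr3a, was also high for these neighbors, but DOX/IgG1 replicate 1, the highest for Smr3a, was listed at 0 for both. Smr2 and Prol1 correlated with each other with r = 0.70 (rho = 0.68), and with Smr3a with r = 0.40 each (rho = 0.42 and 0.30). Without the 2 tumors farthest from the median of the first gene, r was 0.65 for Smr2 and Prol1, 0.53 for Smr3a and Smr2 and 0.84 for Smr3a and Prol1, where Smr3a is left above 0 in 2 tumors, so the order of these relations depends on few tumors. The demilune protein gene Dcpp1 was at 8.0 and 1.79 TPM in DOX/IgG1 replicates 1 and 3 and at 0 elsewhere; Dcpp2 reached 3.77 TPM in DOX/IgG1 replicate 3 and 3.04 TPM in anti-PD-1 replicate 1, and Dcpp3 stayed at or below 3.0 TPM. Prpmp5 was at 1.78 TPM in DOX/IgG1 replicate 1 only, Odam at most 2.52 TPM, Cst10 at 0 to 10.1 TPM with its highest level in DOX/anti-PD-1 replicate 2, and Dnase1 at 1.42 to 18.9 TPM with its highest level in DOX/IgG1 replicate 1.

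**Figure D3:**
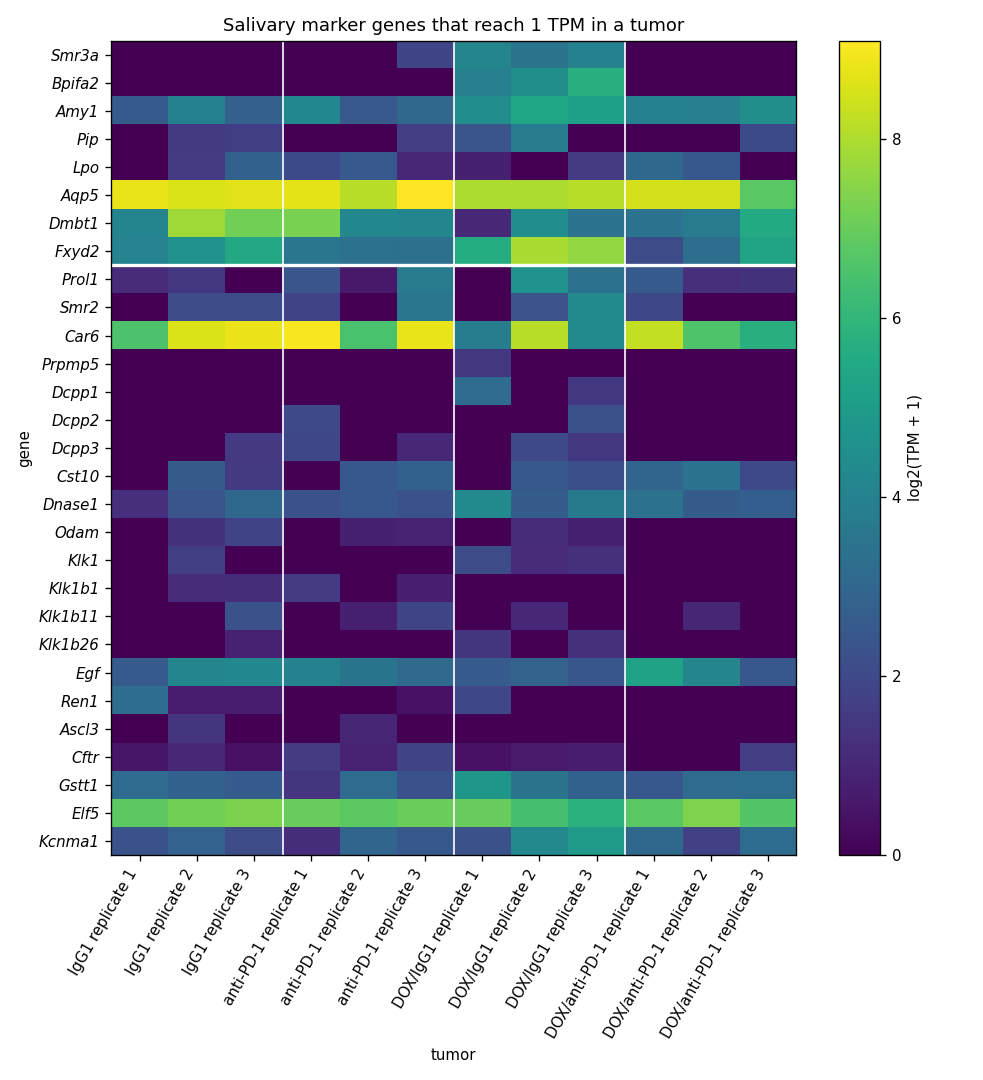
Levels as log2(TPM + 1) (color) of salivary acinar and duct genes that reached 1 TPM in at least 1 tumor and are reported here (y axis), in the 12 tumors (x axis); the 8 genes are above the thick white line, and thin white lines part the groups. Bpifa2 and Smr3a fill the DOX/IgG1 columns, while Smr2, Prol1 and the Dcpp genes do so only in part.

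Among the 21 duct and granular tubule genes, 13 reached 1 TPM in at least 1 tumor, and the most abundant was Elf5 at 55.5 to 160 TPM, which is also a mammary luminal gene. The kallikreins Klk1b3, Klk1b4, Klk1b5, Klk1b9, Klk1b16, Klk1b22, Klk1b24 and Klk1b27, products of the granular tubules, were listed at 0 in all 12 tumors. Klk1, a tissue kallikrein, was at 3.20, 1.18 and 1.43 TPM in DOX/IgG1 tumors, at 2.21 TPM in IgG1 replicate 2 and at 0 in the other 8. Klk1b1 reached at most 1.98, Klk1b11 3.82, Klk1b26 1.66, Ascl3 1.55 and Cftr 2.61 TPM. Egf was at 4.39 to 36.4 TPM and lowest in DOX/IgG1 replicate 3, Ren1 reached 8.42 TPM, Gstt1 was highest at 27.1 TPM in DOX/IgG1 replicate 1, and Kcnma1, a potassium channel gene, was at 18.6 and 29.0 TPM in DOX/IgG1 replicates 2 and 3 and at 1.27 to 8.30 TPM elsewhere. Without Fxyd2 the list summed to 139, 176 and 189 TPM in IgG1, 148, 140 and 155 TPM in anti-PD-1, 170, 123 and 105 TPM in DOX/IgG1, and 157, 188 and 125 TPM in the DOX/anti-PD-1 group, most of it Elf5, which was at 83.8 and 55.5 TPM in DOX/IgG1 replicates 2 and 3. A sum also without Elf5, taken after these values were seen, was 44.0, 38.8 and 49.2 TPM in DOX/IgG1, 27.3, 36.0 and 33.4 TPM in IgG1 and 21.8 to 50.6 TPM in the other 6 tumors. Of the 6 duct genes tested in DOX/IgG1 against IgG1, Fxyd2 included, 4 had higher and 2 lower values, with a median log2 fold change of 0.88 against 0.12 over all genes, as a description.

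Of the secretion machinery, shared by salivary and mammary glands, all 20 genes reached 1 TPM in at least 1 tumor. The sum was 2665, 5026 and 5574 TPM in DOX/IgG1 tumors and 2778 to 4127 TPM in the other 9. Without Slc12a2, a choice made after the values were seen, it was 2285, 2299 and 1981 TPM and 1912 to 3483 TPM, and 14 of the 20 genes had lower values in DOX/IgG1 against IgG1, with a median log2 fold change of -0.29 against 0.12 over all genes. Slc12a2, which brings chloride into secretory cells and is the most abundant gene by its mean over the tumors, was at 2727 and 3594 TPM in DOX/IgG1 replicates 2 and 3, at 380 TPM in replicate 1 and at 458 to 1010 TPM elsewhere. The tumors highest for Fxyd2 were thus also highest for Slc12a2 (r = 0.70, rho = 0.33 over 12 tumors). Without the 2 tumors farthest from the median of Fxyd2, r was -0.14, so the relation rests on those tumors. Of its other genes, Ano1, Chrm1, Xbp1 and Bhlha15 are given as examples picked after their values were seen. Ano1, a chloride channel gene, was above Slc12a2 in 7 of 12 tumors. Chrm1, a muscarinic receptor gene, was at 13.3, 11.1 and 17.8 TPM in DOX/IgG1 tumors and at 3.09 to 9.73 TPM in the rest. Bhlha15 and Xbp1, which encode transcription factors of secretory cells, went the other way, with Xbp1 at 303, 368 and 297 TPM in DOX/IgG1 tumors and at 544 to 1019 TPM in the rest, and Bhlha15 at 5.09, 12.0 and 7.68 TPM and at 10.95 to 32.3 TPM, where the ranges overlapped.

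Markers of other cell types differed between these tumors as well. The myoepithelial list, with Acta2 as its most abundant gene, had all 10 genes above 1 TPM and summed to 305, 963 and 1444 TPM in DOX/IgG1, 636, 258 and 528 TPM in IgG1, 272, 436 and 421 TPM in anti-PD-1, and 611, 586 and 1006 TPM in the DOX/anti-PD-1 group. The luminal list had its highest sums in DOX/IgG1 replicates 2 and 3, at 4009 and 4710 TPM. Its sum was 2183 TPM in replicate 1 and 2464 to 3907 TPM in the other groups. Of the 12 luminal genes 6 were higher in these 2 tumors than in the other 10, as were 6 of the 10 myoepithelial genes and 6.83% of the 14735 genes at 1 TPM or more in at least 3 tumors, counted after the values were seen. The 6 luminal genes were Krt19, at 1261 and 1801 TPM, the hormone receptor genes Esr1, at 51.3 and 77.5 TPM, Pgr, at 103 and 176 TPM, and Prlr, at 416 and 459 TPM, and the transcription factor genes Gata3, at 214 and 232 TPM, and Foxa1, at 48.3 and 76.2 TPM. DOX/IgG1 replicate 1 was the lowest of the 12 tumors for 4 of them. Over all genes, the same held for 187 of the 1007 that were higher in DOX/IgG1 replicates 2 and 3 than elsewhere. Epcam was at 522 and 418 TPM in these 2 tumors, and 7 of the 12 luminal genes had lower values in DOX/IgG1 against IgG1, with a median log2 fold change of -0.19. Milk protein genes summed to 9216, 4716 and 3768 TPM in DOX/IgG1 and 4233 to 11503 TPM in the other tumors. The sum in DOX/IgG1 replicate 1 held 7185 TPM of Ltf, which is also on the airway list, with Csn3 at 812 and Lalba at 6.6 TPM, Ltf and Lalba being picked after their values were seen. Of the 11 milk genes tested in DOX/IgG1 against IgG1, 8 had lower values, with a median log2 fold change of -1.67, and of -1.37 without the 1 gene that reached 1 TPM in IgG1 tumors only. In the same comparison 9 of 10 myoepithelial genes had higher values, with a median of 0.39, while over all genes 8407 were higher and 5467 lower, with a median of 0.12. The part of these cell types in the levels of the 8 genes was not tested.

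The 12 adipocyte genes, led by Car3, all reached 1 TPM and summed to 301, 1986 and 378 TPM in DOX/IgG1 tumors and 167 to 1543 TPM elsewhere. The 13 skeletal muscle genes, led by Myl1, summed to 92.4, 237 and 288 TPM in DOX/IgG1 and 18.1 to 1455 TPM elsewhere, with the highest sums in DOX/anti-PD-1 replicate 1, anti-PD-1 replicate 1 and IgG1 replicate 3, none of them with Bpifa2. The 11 lymph node genes, led by Ccl21a, with Ms4a1 never at 1 TPM, summed to 1.26, 22.7 and 15.1 TPM in DOX/IgG1 and 1.5 to 32.4 TPM elsewhere, and the 11 epidermal genes, led by Sbsn, with Krt2 and Lor never at 1 TPM, to 15.0, 2.85 and 33.9 TPM and 9.44 to 58.0 TPM. Pancreatic acinar genes were near 0. Of 18, 4 reached 1 TPM in at least 1 tumor and 12 were listed at 0 in every tumor, among them Cpa1, Pnlip, Prss2 and Ptf1a, the most abundant was Cel at 0 to 8.33 TPM, and the sum was 5.96, 2.71 and 1.95 TPM in DOX/IgG1 and 0 to 13.9 TPM in the other tumors. Airway and mucosal genes, 16 of 20 at 1 TPM in at least 1 tumor and led by Lcn2, summed to 12322, 4461 and 3328 TPM in DOX/IgG1, with the same 7185 TPM of Ltf in replicate 1, and 3555 to 9364 TPM in the others, with Scgb3a2, Muc5ac, Tff1 and Tff3 listed at 0 in all. In DOX/IgG1 against IgG1, 10 of 12 adipocyte genes had higher values, with a median log2 fold change of 0.54, and 11 of 13 muscle genes lower ones, with a median of -0.43. The medians there were -0.80 over 10 airway genes, -0.41 over 3 lymph node genes and -0.49 over 2 epidermal genes, and 0 pancreatic genes were tested. The part of these cell types was not tested.

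**Figure D4:**
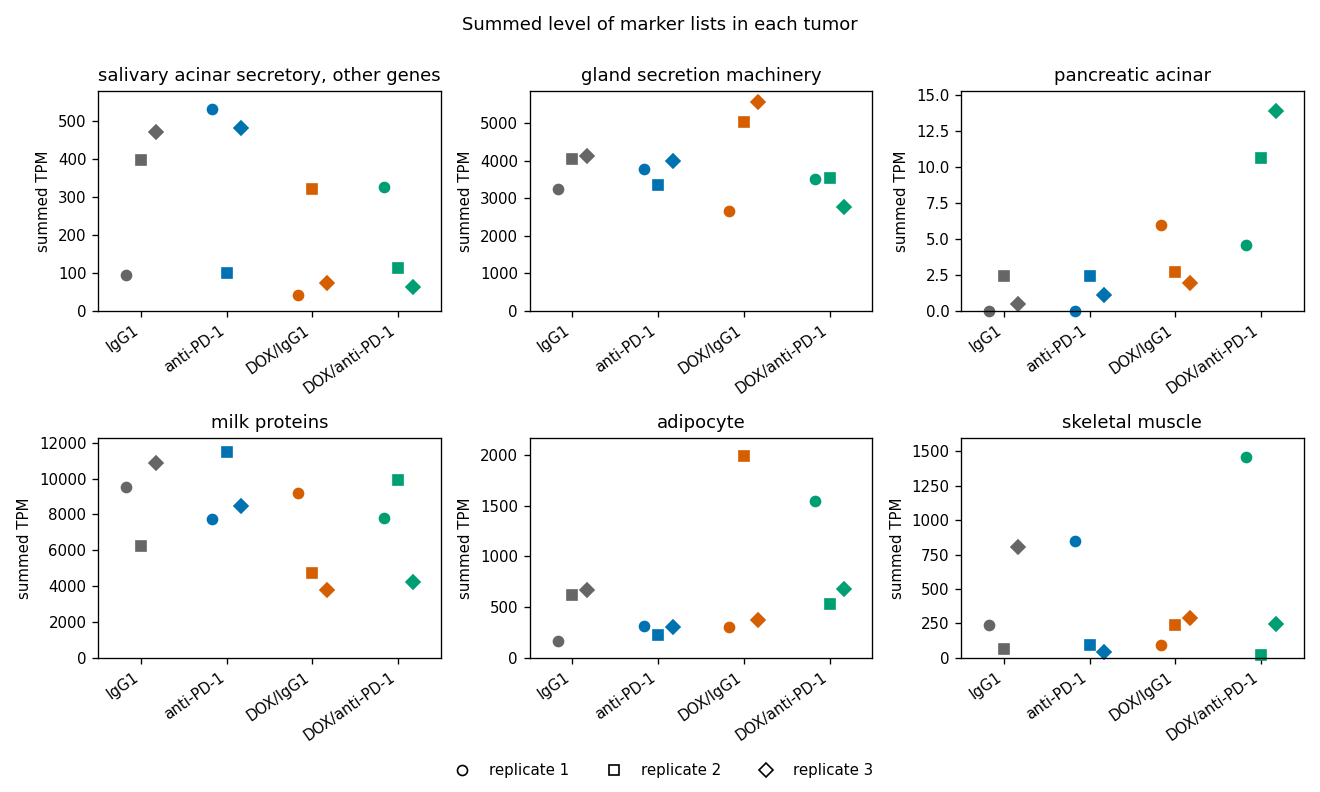
Summed TPM (y axis, linear, from 0) of 6 marker lists in each of the 12 tumors, by treatment group (x axis); each point is 1 tumor and its shape the replicate number, and the salivary acinar panel leaves out the 8 genes. The other salivary acinar genes sum to 42.0, 320 and 73.1 TPM in DOX/IgG1 tumors with Car6, and to 28.7, 41.8 and 54.4 TPM without it, which is not drawn.

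No listed relative of Bpifa2 was above 0 in all DOX/IgG1 tumors and at 0 in all others. Of 16 genes of the BPI fold family, 5, namely Bpifa3, Bpifa5, Bpifa6, Bpifb2 and Bpifb6, were listed at 0 in all 12 tumors, Bpifa6 being the nearest coding neighbor of Bpifa2. Bpifa1, an airway relative, reached 1.88 TPM in DOX/IgG1 replicate 3 and 1.85 TPM in IgG1 replicate 1. Bpifb4 was at 1.38 TPM in DOX/IgG1 replicate 3 and at 0 in the other 11 tumors. Bpifb1 reached at most 1.29, Bpifb5 7.98 and Bpifb9a 7.86 TPM, each highest outside DOX/IgG1. The most abundant were the lipid transfer relatives Lbp, at 15.0 to 184 TPM with 184, 28.4 and 15.0 TPM in DOX/IgG1 tumors, and Pltp, at 7.13 to 36.4 TPM with 10.1, 36.4 and 29.2 TPM. In DOX/IgG1 replicates 2 and 3 Pltp, like Bpifa2, was higher than in all other tumors, where Pltp reached at most 25.5 TPM.

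The comparison of DOX/anti-PD-1 against anti-PD-1 sets tumors with and without doxorubicin under PD-1 blockade side by side, and it shares no tumor with the comparison that chose the genes. Doxorubicin cannot be told apart here from the size at start, the first antibody dose and the antibody schedule. In the genes tested, no difference passed the limits here. Bpifa2 was listed at 0 in all 6 tumors, and Smr3a and Pip reached 1 TPM in fewer than 3 of them, so 5 of the 8 were tested. Of these 5, 0 were called, as were 0 of all 13736 genes tested with limma (0.00%), and 0 of the 5 and 1185 of the 13736 had an unadjusted p below 0.05. Amy1 had 17.1 ± 4.10 TPM in DOX/anti-PD-1 and 10.1 ± 7.02 TPM in anti-PD-1 tumors (SD, n = 3), with overlapping groups. The difference was 0.87 on the log2 scale with a standard error of 0.45, a limma adjusted p of 0.617 and a two-sided exact permutation p of 0.3. Aqp5 had 274 ± 145 against 415 ± 135 TPM, which is -0.74 in log2 (standard error 0.47, adjusted p of 0.687 with limma and 0.4 by exact permutation), and -1.03 to -0.16 without 1 tumor, the latter without DOX/anti-PD-1 replicate 3, which stood apart. Dmbt1 had a log2 fold change of -0.95 (standard error 0.83) and Lpo of -0.04 (standard error 0.78). Fxyd2 stood at 0.11 in log2 (standard error 0.69, adjusted p of 0.975 with limma and 1 by exact permutation), and -0.77 without DOX/anti-PD-1 replicate 3. The smallest p that 3 tumors against 3 allow in the exact test is 0.1. The 2 groups overlapped for all 5 genes, against 11.1% of all genes higher and 3.84% lower without overlap. Scaling each tumor by the median of ratios moved the median log2 fold change of all genes from 0.11 to -0.01, and relative to the median of all genes Amy1 stood at 0.76, Aqp5 at -0.84, Dmbt1 at -1.05, Lpo at -0.15 and Fxyd2 at 0.0063, the last turning to -0.0010 when scaled. For DOX/IgG1 against IgG1 the scaling moved this median from 0.12 to 0.01, and relative to it Amy1 stood at 1.75, Fxyd2 at 2.23, Aqp5 at -0.78 and Dmbt1 at -3.49.

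**Figure D5:**
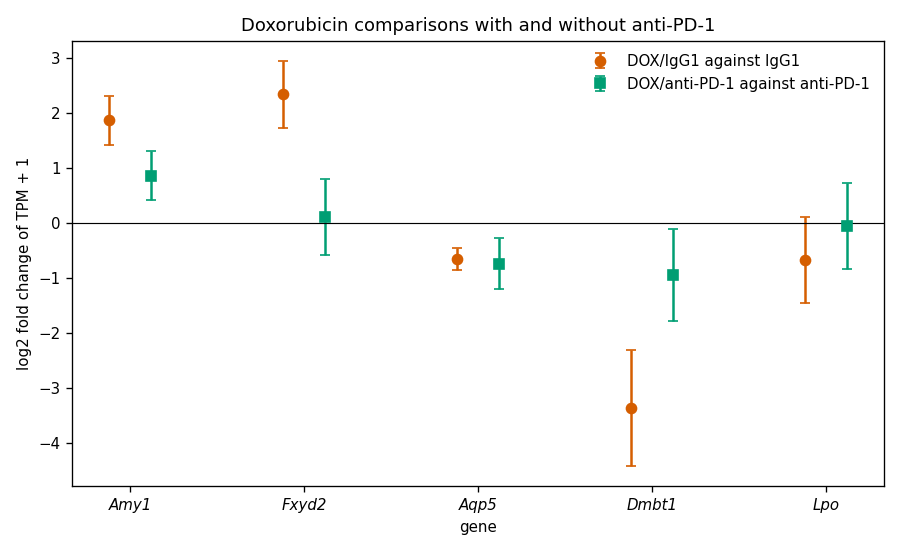
Log2 fold change of TPM + 1 (y axis) with its standard error from limma (bars) for the 5 genes tested under anti-PD-1 (x axis), in DOX/IgG1 against IgG1 (circles, a description since it chose the genes) and in DOX/anti-PD-1 against anti-PD-1 tumors (squares), 3 tumors per group. Fxyd2 is at 2.35 and 0.11, Amy1 at 1.88 and 0.87, and Aqp5 at -0.66 and -0.74.

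Side by side, the log2 fold changes of the doxorubicin groups against those without it were 1.88 without and 0.87 with anti-PD-1 for Amy1, 2.35 and 0.11 for Fxyd2, -0.66 and -0.74 for Aqp5, -3.37 and -0.95 for Dmbt1 and -0.67 and -0.04 for Lpo. The differences between these pairs were not tested, because the first of each pair chose the genes. Lpo in DOX/IgG1 against IgG1 was at -1.40 without IgG1 replicate 1 and turned to 0.01 without IgG1 replicate 3.

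In the comparison of anti-PD-1 with IgG1 tumors, which shares the IgG1 tumors with the comparison that chose the genes, Fxyd2 was the 1 gene of the 8 whose groups did not overlap, and it was lower. Bpifa2 was listed at 0 in all 6 tumors and Smr3a reached 1 TPM in 1 of them, so 6 of the 8 reached the minimum. Their values are a description with no p, because the IgG1 tumors also chose the genes. With limma 0 of all 13692 genes (0.00%) were called, and 630 had an unadjusted p below 0.05. Fxyd2 had 9.91 ± 0.784 TPM in anti-PD-1 and 27.5 ± 14.5 TPM in the IgG1 group (SD, n = 3), a log2 fold change of -1.26 (standard error 0.37). Among all genes, 6.24% were lower and 3.64% higher without overlap, so 1 of 6 is no more than a description. Dmbt1 had a log2 fold change of -1.13 (standard error 0.99), Pip of -0.53 (standard error 0.66), Lpo of 0.43 (standard error 0.70), Amy1 of 0.14 (standard error 0.51) and Aqp5 of -0.04 (standard error 0.28).

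For the setting of DOX/anti-PD-1 against DOX/IgG1, which shares the DOX/IgG1 tumors with the comparison that chose the genes, values are again a description. For Bpifa2, Smr3a and Fxyd2 the highest DOX/anti-PD-1 tumor was below the lowest DOX/IgG1 tumor, and 0 of the 8 were higher without overlap. Bpifa2 and Smr3a reached the minimum here through the DOX/IgG1 tumors only, which fixed their direction, so nothing is read from this count. Of 13946 genes, 5.95% were lower and 4.27% higher in this way, 0 (0.00%) were called with limma, and 655 had an unadjusted p below 0.05. The log2 fold change was -3.50 for Fxyd2, -0.87 for Amy1, -0.12 for Aqp5, 1.29 for Dmbt1, -1.36 for Pip and 1.05 for Lpo. Without 1 tumor it ran from -4.38 to -2.75 for Fxyd2, -1.14 to -0.65 for Amy1, -0.42 to 0.45 for Aqp5, 0.32 to 2.02 for Dmbt1, -2.39 to -0.51 for Pip and 0.46 to 1.98 for Lpo. Aqp5 thus turned, at 0.45 without DOX/anti-PD-1 replicate 3, and Dmbt1 was at 0.32 without DOX/IgG1 replicate 1. None is given for Bpifa2 and Smr3a, which were listed at 0 in 1 of the groups.

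The lists are described by their counts and medians beside those of all genes. Of the 21 salivary acinar genes, 9 were tested in DOX/anti-PD-1 against anti-PD-1, 3 with a higher and 6 with a lower value, or 2 and 3 of the 5 that are not among the 8, and the median log2 fold change was -0.55 against 0.11 over all genes. In anti-PD-1 against IgG1, 11 were tested, 8 with a higher and 3 with a lower value, with a median of 0.14 against -0.03, or 6 and 0 of the 6 that are not among the 8, with a median of 0.38. For the duct list 6 and 7 genes were tested, with medians of 0.25 and -0.13, and for the 20 genes of the secretion machinery the medians were -0.17 and 0.01. With limma, and leaving the 8 genes aside, 0 genes of these lists were called in either comparison. At an unadjusted p below 0.05, again leaving the 8 genes aside, there were 0 acinar and 0 duct genes in both, and 1 and 0 genes of the machinery.

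In DOX/anti-PD-1 against anti-PD-1, all 12 adipocyte genes had higher values, 10 of them at an unadjusted p below 0.05, with a median log2 fold change of 1.43, and all 10 myoepithelial genes were higher, 6 at such a p, with a median of 0.80. Over all genes, 8239 of 13736 were higher there and 1185 had such a p. Genes of a list share the same tumors and can move together, so the counts of each list are a description and not separate observations. The 12 luminal genes, 7 higher and 5 lower, had a median of 0.08, with 2 at such a p. Of the 6 epidermal genes tested there, with a median of -1.30 and 3 at such a p, 2 reached 1 TPM in anti-PD-1 tumors only, so that the minimum fixed their direction. The other 4 were lower, with a median of -0.73 and 1 at such a p. In anti-PD-1 against IgG1, 5 epidermal genes were tested, with a median of 2.12 and 4 at such a p, but 3 of them reached 1 TPM in anti-PD-1 tumors only, and the other 2 were higher, with a median of 1.15 and 1 at such a p. The 12 luminal genes were all lower, with a median of -0.25 and 2 at such a p, while 7224 of all 13692 genes were lower and 630 had an unadjusted p below 0.05. Lower there were also 11 of 12 adipocyte genes, with a median of -0.55 and 1 at such a p, and 8 of 10 myoepithelial genes, with a median of -0.28 and 0 at such a p. With limma, 0 genes of these lists were called. The medians of the other lists in these 2 comparisons were 0.42 and -0.61 for milk proteins, -0.03 and -0.68 for muscle, -0.38 and 0.12 for lymph node (0.13 in the first without a gene that reached 1 TPM in anti-PD-1 tumors only), 0.04 and -0.14 for airway (0.28 likewise), -0.14 and -0.21 for the FXYD family, -0.34 and -0.02 for aquaporins, -0.07 and -0.20 for the BPI fold family and -0.17 and 0.30 for the peroxidases, and Cel was the 1 pancreatic gene tested, at 1.98 and 0.06. Leaving the 8 genes aside, the medians were -0.01 and 0.003 for aquaporins and -0.24 and -0.20 for the FXYD family. The 1 peroxidase gene then left was at -0.29 and 0.17.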

How the data were processed

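Total RNA of 12 whole tumors was sequenced, and the methods and the submitters' processing notes name STAR for alignment, mm10 as the genome and RSEM for gene levels, with versions not given in the sources used here. The authors deposited log2(TPM + 1) with decimal commas. The unit TPM comes from the methods, and reversing the log2 step gave values in steps of 0.01. TPM keep no read counts, so depth and counting error are unknown. The 8 genes and the 17 gene lists were chosen with earlier results of these data known.

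Genes at 1 TPM in at least 3 of the 6 tumors of a comparison were tested on log2(TPM + 1) with limma 3.58.1 (R 4.3.3), lmFit and eBayes with a trend, two-sided, with Benjamini-Hochberg adjustment over all genes tested. A call needed an adjusted p under 0.1 and a difference of more than 1 in log2, and the step was tested on simulated data. There, 200 genes above the lowest levels were changed by 1.5 in log2. Of these, 112 were called for DOX/anti-PD-1 against anti-PD-1 and 122 for anti-PD-1 against IgG1, with 12 and 21 wrong calls. At a change of 3, 198 were called in each, with 24 and 23 wrong calls. A gene that was not called can thus still differ. Single genes were also compared by exact permutation. The 8 genes are given a p in DOX/anti-PD-1 against anti-PD-1 alone, and their planned test in anti-PD-1 against IgG1 is left out, because the IgG1 tumors also chose them. Named are the 8 genes, the 3 most correlated genes of each, the most abundant gene of each list, and the salivary genes and paralogs that reached 1 TPM in a tumor. Other genes named were chosen after their values were seen. Some genes of the lists are not reported here. Coordinates are from GENCODE vM21 (GRCm38). Alternatives were another pseudocount, no minimum, median-of-ratios scaling, all 12 tumors in 1 fit, a replicate block, other limits, Spearman rho, 9 tumors or group deviations for the correlations, and leaving out each tumor. Python 3.11.15, numpy 2.4.6, pandas 2.3.3, scipy 1.17.1 and matplotlib 3.10.9 were used.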

Additional observations from a re-analysis of the deposited data

How the results depend on the processing

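No gene of the 8 was called with limma in DOX/anti-PD-1 against anti-PD-1 under any alternative run. Of their log2 fold changes there and in anti-PD-1 against IgG1, the latter a description, 109 alternative values kept the direction and 12 turned, 11 of them on leaving out 1 tumor. The 109 include values with no minimum, with all 12 tumors in 1 fit and with a replicate block. These settings cannot change a difference of group means here, so nothing is read from their kept directions. Some other values kept the direction but moved far. With a pseudocount of 0.1, Lpo went from -0.04 to -0.82 in DOX/anti-PD-1 against anti-PD-1, and in anti-PD-1 against IgG1 Lpo from 0.43 to 1.31 and Pip from -0.53 to -1.47. Without 1 tumor, Amy1 ran from 0.50 to 1.35 in the first, and Dmbt1 from -2.26 to -0.42 and Pip from -1.08 to -0.22 in the second. The cause was not tested.

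In DOX/anti-PD-1 against anti-PD-1, Fxyd2 turned from 0.11 to -0.0010 with median-of-ratios scaling and -0.77 without DOX/anti-PD-1 replicate 3 (highest value without 1 tumor 0.857), Dmbt1 from -0.95 to 0.0793 (lowest -1.59) without anti-PD-1 replicate 1, and Lpo from -0.04 to 0.04 and 0.29 without anti-PD-1 replicates 1 and 2 and 0.88 without DOX/anti-PD-1 replicate 3 (lowest -0.641). In anti-PD-1 against IgG1, Amy1 turned from 0.14 to -0.11 and -0.04 without IgG1 replicates 1 and 3 and -0.34 without anti-PD-1 replicate 1 (highest 0.568), Aqp5 from -0.04 to 0.01 without IgG1 replicate 1 and 0.22 without anti-PD-1 replicate 2 (lowest -0.268), and Lpo from 0.43 to -0.30 without IgG1 replicate 1 (highest 1.11).

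Leaving out 1 tumor gave 0 to 4 called genes instead of 0 for DOX/anti-PD-1 against anti-PD-1, 0 to 4 for anti-PD-1 against IgG1 and 0 to 4 for DOX/anti-PD-1 against DOX/IgG1. For DOX/IgG1 against IgG1 it gave 0 to 122 instead of 5, with 122 without DOX/IgG1 replicate 1. The last 2 comparisons hold the DOX/IgG1 tumors. With median-of-ratios scaling 3 genes, and with all 12 tumors in 1 fit 2 genes, were called for DOX/anti-PD-1 against DOX/IgG1 instead of 0.

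The replicate numbers name no shared mouse. Deviations of same-numbered tumors correlated between -0.10 and 0.15, not above 0.1 for all 3 numbers in any comparison, so the tumors were not treated as pairs. With a replicate block, 2 rather than 5 genes were called for DOX/IgG1 against IgG1, and 0 in each of the other 3 comparisons.

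The median r of the 28 pairs, -0.03, was 0.0385 with Spearman rho, 0.0578 for deviations from the group means and -0.0990 to 0.0538 without 1 tumor. It was -0.01 with a pseudocount of 0.1. Pairs with r above 0.5 numbered 2 rather than 7 for the deviations. They numbered 4 without DOX/IgG1 replicate 2, 9 without DOX/IgG1 replicate 3 and 7 or 8 without any other tumor. Over the 9 tumors outside DOX/IgG1, 21 pairs have a value, since Bpifa2 has none. For these 21 pairs, a comparison chosen after seeing the data, the median was -0.03 over 9 and -0.06 over 12 tumors, with 2 and 4 pairs above 0.5.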
